A study of Mus musculus with 8 samples.

Results

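The genes described here are 44 protein-coding mouse genes, of 37310 genes measured, that bring proteins into mitochondria, fuse and divide mitochondria, or maintain and transcribe mitochondrial DNA. They were chosen by a rule on symbols that uses no measured value, but with earlier results of these data known. Of the 44, 24 have symbols that begin with Timm or Tomm and a digit. The other 20 were named singly, from the fusion gene Mfn1 to the DNA polymerase gene Polg. Tomm20 fits the same rule and was not analysed here. RNA with a poly(A) tail was sequenced from 2-cell mouse embryos that had grown from fertilized eggs in G1 medium. Controls received the solvent DMSO (4 libraries, control 1 to 4). Treated embryos received triclocarban, an antibacterial ingredient of soaps, at 6 µM (4 libraries, triclocarban 1 to 4). The labels give no strain, age, hour of collection or number of embryos per library. Nothing in them shows that a group's libraries came from different cultures, so each p-value reflects library-to-library spread that could be purely technical. The series title names the passage from maternal to embryonic transcripts as its question.

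Nearly all mitochondrial proteins are made in the cytosol and imported. They cross the outer membrane through the TOM complex. Small chaperones of the intermembrane space then carry membrane proteins to the TIM22 complex, while proteins with a cleavable leader pass through the TIM23 complex and are pulled into the matrix by an ATP-driven motor. Mitofusins and OPA1 fuse mitochondria, and DRP1 divides them. The oocyte provides the mitochondria of the early mouse embryo, and replication of mitochondrial DNA is known to be low until around implantation.

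Expression was given as FPKM, which divides a gene's fragments by transcript length and by the library's mapped fragments, so a value is a share of a library's poly(A) RNA and not an amount per embryo. Fewer cells of a kind and less RNA per cell cannot be told apart in such whole-embryo libraries. The table gives no depth: the worth of 1 fragment, read from the low values, gave a rough 6950000 fragments in triclocarban library 2 and 10600000 to 14900000 in the other libraries. Only 5.86 to 8.22% of low values were whole multiples of that worth (4% expected by chance), so these depths are uncertain. Controls 1 and 2 lay apart from controls 3 and 4 on the first principal component (at -27.8 and -36.5 against -101.7 and -97.8, treated libraries 62.7 to 69.6), and triclocarban library 2 lay apart on the second, at 63.3. All 11 oocyte and embryo markers were measured in every library, with a summed 4955 to 6028 FPKM in controls and 8831 to 11900 with triclocarban (9 higher, 1 lower by limma). Of 7 measured markers of the 2-cell stage, 3 were higher and 3 lower, and their sum was 565.6 to 712.7 FPKM in controls and 248.3 (triclocarban library 2) to 830.8 with triclocarban. Of 10 cumulus and granulosa markers, 8 were below the filter and Amh and Inha were at 0 in every library. The 2 that were tested, Cyp19a1 and Fshr, were both higher by limma. Cyp19a1 had 1.23 to 4.47 FPKM in controls and 6.55 to 11.88 with triclocarban, and Fshr 0.16 to 2.57 and 1.49 to 4.75. The summed level of the 10 was 1.67 to 7.92 FPKM in controls and 9.16 to 17.6 with triclocarban. The 6 sperm markers summed to 1.12 to 5.90 FPKM in controls and 7.23 to 10.4 with triclocarban, most of it Prm2, while Prm1 and Tnp1 were at 0 in every control. Among blood markers Hbb-bs was at 0 throughout and Hba-a1 was at 37.8 to 68.2 FPKM in controls and 6.99 to 26.9 with triclocarban. The part of these differences in the results below was not tested.

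With triclocarban, transcripts of 13 import genes, of the mitofusin gene Mfn2 and of 4 genes for mitochondrial DNA were lower, and those of Timm9, Dnm1l and Tfb1m were higher. Of the 44 genes, 42 reached 1 FPKM in 4 or more libraries and were tested on the log2(FPKM + 1) scale. In that test 18 were lower, 3 were higher and 21 did not pass the threshold (limma, Benjamini-Hochberg adjusted p under 0.05 over all genes). Among all 12941 genes tested, 30.8% were lower and 11.3% higher. All treated libraries lay below all controls for 17 of the tested members, against 30% of all genes, and above them for 4, against 10.2%. With a log2 change of at least 1 required as well, 16 members were lower and 2 higher, against 25.5% and 8.34% of all genes. Of the 18 lower members, Chchd4, Mfn2, Polg2 and Timm22 reached 1 FPKM in all controls but not in all treated libraries (Timm22 in none), so they passed the filter through the group where they were high. The median log2 change of the tested members was -0.53, and the median over all genes in the test was -0.19. The balance of calls depended on the scaling. There were 8 higher and 15 lower members after median-of-ratios scaling, 11 and 15 after upper-quartile scaling and 7 and 16 after quantile normalization, which put the median of all genes at 0.06, 0.20 and 0.14. All genes shifted too, to 20.4% higher and 24.6% lower, 25.4% and 22%, and 22.5% and 22%. Of the 21 uncalled members, 11 passed in at least 1 alternative setting. The members called lower in those 3 settings were all among the 18. Without triclocarban library 2 there were 6 higher and 16 lower, against 14% and 32.3% of all genes.

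**Figure D1:**
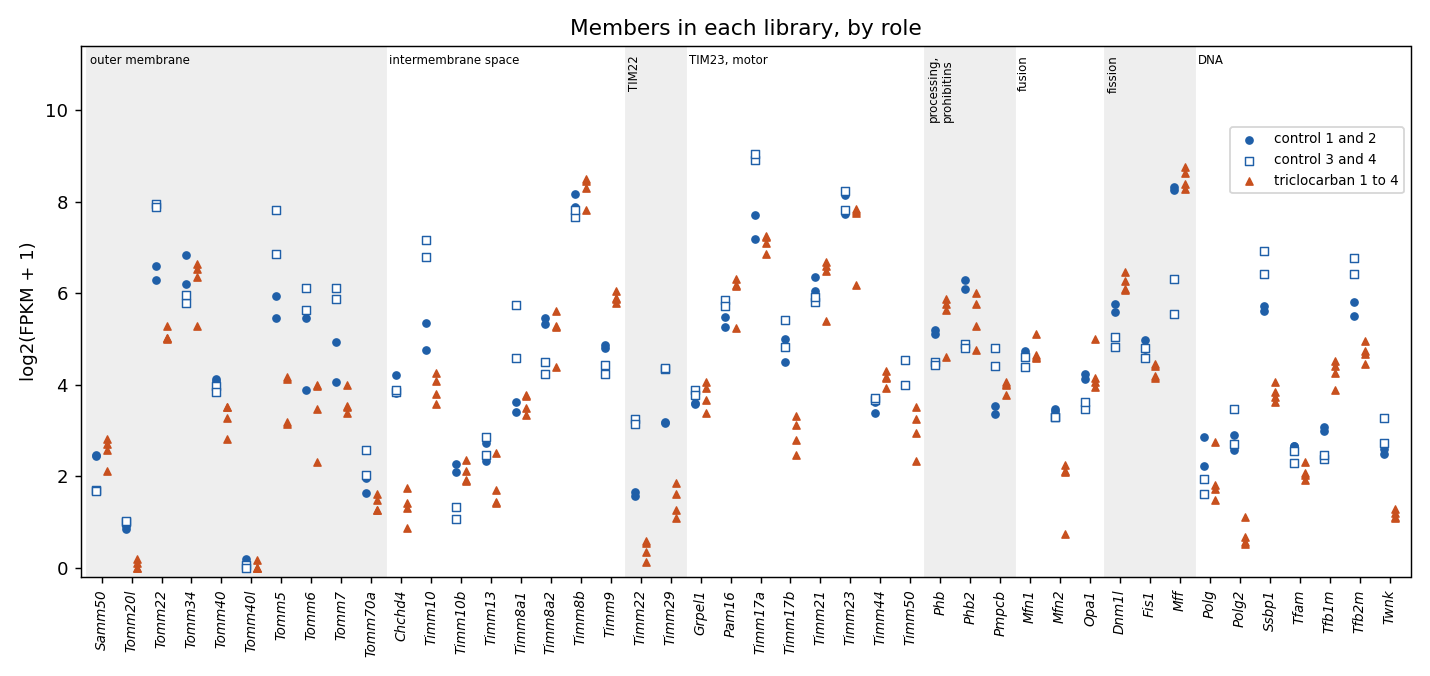
Level of each of the 44 genes in each library, as log2(FPKM + 1), grouped by role. Filled blue circles are controls 1 and 2, open blue squares controls 3 and 4 and orange triangles the 4 triclocarban libraries. The controls split by pair for genes such as Tomm22, Timm10 and Mff, and lie close together for Chchd4 and Mfn2.

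**Figure D2:**
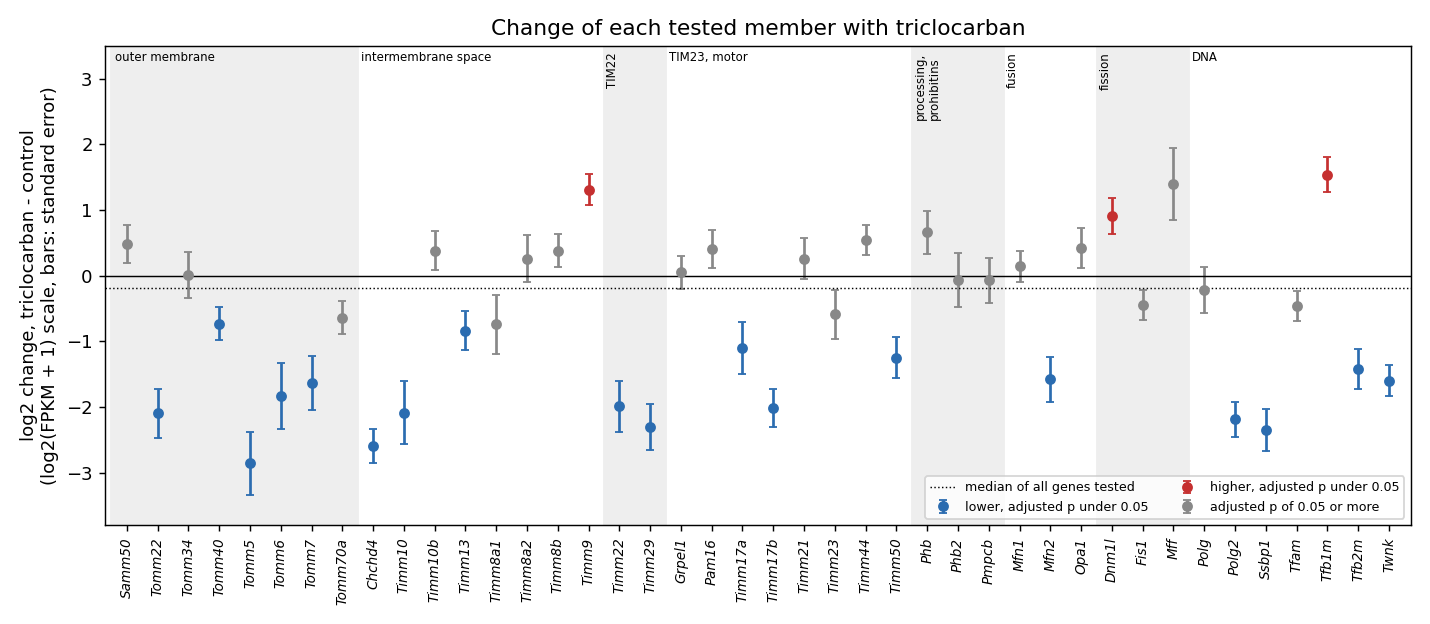
Log2 change (triclocarban minus control, log2(FPKM + 1) scale) of the 42 tested genes with its standard error, from limma with 4 libraries a group. Blue marks the 18 lower genes, red the 3 higher ones and grey the 21 that did not pass the threshold. The dotted line is the median of all tested genes, -0.19.

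Levels spanned a wide range. In controls 6 genes had a mean of at least 100 FPKM: Timm17a, Timm23, Timm8b, Mff, Tomm22 and Tomm5. With triclocarban 4 did, namely Mff, Timm8b, Timm23 and Timm17a. A control mean under 10 FPKM was found for 13 genes, among them Twnk, Polg2, Tfam and Mfn2, and a treated mean under 10 FPKM for 17. The 44 genes together took 0.353, 0.39, 0.42 and 0.41% of the FPKM sum in controls 1 to 4 and 0.369, 0.279, 0.339 and 0.342% in triclocarban libraries 1 to 4. Triclocarban library 1 lay above control 1, so the groups overlapped in this sum.

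The 4 members with the smallest adjusted p, all lower, were Chchd4, Polg2, Ssbp1 and Timm17b. The 250 bases before their RefSeq starts (build GRCm38.p6) are shown for that rank alone, with capitals for 2 motifs of factors known to drive nuclear genes for mitochondria. The motifs are the NRF1 motif GCGCNNGCGC and the core GABP motif CCGGAAG, searched on both strands. GENCODE places an earlier start 123 bases upstream for Chchd4 and 116 for Ssbp1.
Chchd4, chr6:91473424-91473673, minus strand: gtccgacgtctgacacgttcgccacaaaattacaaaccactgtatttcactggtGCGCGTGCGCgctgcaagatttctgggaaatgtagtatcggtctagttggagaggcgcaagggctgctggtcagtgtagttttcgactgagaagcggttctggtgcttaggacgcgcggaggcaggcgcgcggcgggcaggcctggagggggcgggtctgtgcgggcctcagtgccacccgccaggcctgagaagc
Polg2, chr11:106779538-106779787, minus strand: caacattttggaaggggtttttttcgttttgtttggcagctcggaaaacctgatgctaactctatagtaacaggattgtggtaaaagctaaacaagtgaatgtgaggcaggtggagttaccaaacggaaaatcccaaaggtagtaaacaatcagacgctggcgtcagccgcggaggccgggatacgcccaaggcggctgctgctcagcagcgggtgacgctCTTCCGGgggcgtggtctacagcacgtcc
Ssbp1, chr6:40471218-40471467, plus strand: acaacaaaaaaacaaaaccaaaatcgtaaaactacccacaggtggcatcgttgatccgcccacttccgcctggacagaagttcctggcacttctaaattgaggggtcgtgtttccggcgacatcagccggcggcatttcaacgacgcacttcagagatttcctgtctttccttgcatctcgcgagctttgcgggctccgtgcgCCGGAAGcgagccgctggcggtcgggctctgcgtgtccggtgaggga
Timm17b, chrX:7899086-7899335, plus strand: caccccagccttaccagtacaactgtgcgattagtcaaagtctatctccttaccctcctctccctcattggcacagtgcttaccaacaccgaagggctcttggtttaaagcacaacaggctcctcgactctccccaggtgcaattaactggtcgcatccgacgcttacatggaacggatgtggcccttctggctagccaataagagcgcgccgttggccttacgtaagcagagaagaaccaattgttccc

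Chchd4 held 1 NRF1 motif that began 196 bases upstream, Polg2 1 GABP motif on the opposite strand at 29 bases and Ssbp1 1 on the same strand at 47 bases. Timm17b held neither. RefSeq windows, 250 bases before to 50 after a start, were matched for 41 of the 44 genes, and Timm21, Tomm7 and Tomm40l had none. The GABP motif was in a window of 20 of the 41 (48.8%), against 20.6% of the 8765 tested genes with a window. By call, it was in 6 of 17 lower, 1 of 3 higher and 13 of 20 uncalled genes. The NRF1 motif was in 5 of the 41 (12.2%), against 15.5% of those tested genes. Over all 32851 windows the shares were 8.86% for GABP and 6.23% for NRF1. A match of letters is a description and no proof of binding. The GABP subunit gene Gabpa itself had 67.3, 57.6, 107.2 and 129.5 FPKM in controls 1 to 4 and 12.7, 12.9, 17.5 and 13.2 in triclocarban libraries 1 to 4, with no overlap. Its log2 change was -2.54 (standard error 0.30, limma adjusted p = 0.000113). Nrf1 had 30.7 to 51.0 FPKM in controls and 22.4 to 40.8 with triclocarban, and its change of -0.29 did not pass the threshold (limma adjusted p = 0.439).

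At the outer membrane, 5 of 8 tested genes fell and 0 rose in the limma fit (0 rose at an unadjusted p under 0.05 as well). Those that fell were 62.5%, against 30.8% of all genes, 11.3% of which rose. This share depended on the controls. Against controls 1 and 2 alone, Tomm6, Tomm7 and Tomm40 missed the threshold (limma adjusted p = 0.148, 0.0677 and 0.055), where 25.1% of all genes were lower. Tomm5 encodes a small subunit of the TOM channel (ENSMUSG00000078713.2, chromosome 4, 45105208 to 45108114, minus strand, GRCm38). It had FPKM values of 42.8, 60.1, 114.2 and 223.7 in controls 1 to 4 and 8.10, 7.78, 16.5 and 16.9 in triclocarban libraries 1 to 4. Every treated library lay below every control, with a log2 change of -2.86 (standard error 0.48, limma adjusted p = 0.000735). Tomm22, the central receptor that holds TOM subunits together (chromosome 15, 79670861 to 79673400, plus strand), had 76.8, 96.1, 245.9 and 233.3 FPKM in controls and 31.0, 31.3, 31.3 and 37.7 with triclocarban. It fell by 2.10 on the log2 scale (limma adjusted p = 0.00114), and its controls differed more among themselves than its treated libraries did. Tomm7, another small subunit (chromosome 5, 23838944 to 23844161, minus strand), had 15.7, 29.4, 67.9 and 57.7 FPKM in controls and 10.4, 9.36, 10.6 and 14.98 with triclocarban. The lowest control, 15.7, lay just above the highest treated library, and Tomm7 fell by 1.64 (limma adjusted p = 0.00786).

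Tomm6, the remaining small subunit measured, went from 43.2 ± 22.4 to 10.95 ± 5.17 FPKM (SD, n = 4 each) and fell by 1.83 (limma adjusted p = 0.0122), with control 1 (13.7) inside the treated range. A gene model on the same strand, Gm21981, covers 76% of its exon bases, so its value is uncertain. Tomm40, the channel itself, went from 15.2 ± 1.43 to 8.92 ± 2.07 FPKM and fell by 0.73 (limma adjusted p = 0.0367). This call was lost in 14 of 24 alternative settings, median-of-ratios scaling among them (-0.45, limma adjusted p = 0.152). The receptor gene Tomm70a (1.66 ± 0.32 against 3.25 ± 1.19 FPKM in controls), Tomm34, a cytosolic co-chaperone, and Samm50, which inserts barrel-shaped proteins into the outer membrane, did not pass the threshold. Tomm70a lay lower in every treated library (limma adjusted p = 0.0589), and Samm50 had a change of 0.48. Below the filter, Tomm20l, a relative of Tomm20, had 0.81, 0.89, 1.01 and 1.03 FPKM in controls and was listed at 0, 0, 0.07 and 0.14 with triclocarban. Tomm40l, a relative of Tomm40, had at most 0.15 FPKM in any library.

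In the intermembrane space, Chchd4 had the smallest adjusted p of all members. It encodes the oxidoreductase that traps imported proteins by forming disulfide bonds in them (ENSMUSG00000034203.7, chromosome 6, 91462172 to 91473546, minus strand). Its FPKM was 17.5, 13.2, 13.3 and 13.8 in controls and 1.67, 0.84, 2.37 and 1.47 with triclocarban. The controls lay close together and far above the treated libraries, with a log2 change of -2.60 (standard error 0.26, limma adjusted p = 5.86e-05). Its sulfhydryl oxidase partner Gfer had 22.1 and 19.5 FPKM on average in controls and with triclocarban (limma adjusted p = 0.553).

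The small TIM chaperones that CHCHD4 oxidizes did not move as one: 2 fell, 1 rose and 4 did not pass the threshold. Of all genes tested, 30.8% fell and 11.3% rose. TIMM9 and TIMM10 work in one hexamer, yet their transcripts moved in opposite directions. Timm9 (chromosome 12, 71123173 to 71136684, minus strand) had 26.9, 28.03, 20.6 and 17.8 FPKM in controls and 64.8, 58.3, 57.5 and 54.3 with triclocarban. All treated libraries lay above all controls, and Timm9 rose by 1.31 (standard error 0.24, limma adjusted p = 0.00125). Timm10 (chromosome 2, 84826997 to 84830213, plus strand) had 26.2, 39.9, 109.5 and 141.8 FPKM in controls and 10.9, 13.0, 16.0 and 18.0 with triclocarban. All treated libraries lay below all controls, and Timm10 fell by 2.09 (standard error 0.48, limma adjusted p = 0.0046). Timm13, which pairs with TIMM8, went from 5.13 ± 1.04 to 2.58 ± 1.45 FPKM (SD, n = 4 each), with the groups overlapping. Its fall of 0.84 (limma adjusted p = 0.0399) was lost in 15 of 23 alternative settings. Timm8b, the most abundant of these chaperone genes, had 237.8 ± 36.1 FPKM in controls and 312.3 ± 60.8 with triclocarban (limma adjusted p = 0.25). The related Timm8a1 and Timm8a2 and the TIM22 subunit gene Timm10b had changes of -0.74, 0.26 and 0.38 that did not pass. How reads shared by close relatives such as Timm8a1 and Timm8a2 were counted is not stated.

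The TIM22 complex inserts carrier proteins into the inner membrane. Its genes Timm22 and Timm29 fell, while the subunit genes Timm10b and Agk, which is no member of the set, did not pass (Agk at 0.45, limma adjusted p = 0.314). Timm22, its channel (chromosome 11, 76406952 to 76416292, plus strand), had 2.14, 1.96, 8.47 and 7.77 FPKM in controls and 0.28, 0.50, 0.10 and 0.45 with triclocarban. All treated values were under the 1 FPKM of the filter, which Timm22 passed through its controls alone. The groups did not overlap, and Timm22 fell by 1.99 (standard error 0.39, limma adjusted p = 0.00177). Timm29, a subunit that tethers TIM22 to the TOM complex (chromosome 9, 21592722 to 21595970, plus strand), had 7.93, 8.12, 19.3 and 19.6 FPKM in controls and 1.12, 2.59, 1.39 and 2.07 with triclocarban. It fell by 2.31 (standard error 0.35, limma adjusted p = 0.000411), again without overlap.

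Of 8 genes of the TIM23 complex and its motor, 3 fell and 0 rose in the limma fit (1, Timm44, was higher at an unadjusted p under 0.05). The 3 that fell were 37.5%, near the 30.8% of all genes, 11.3% of which rose. Timm17b (ENSMUSG00000031158.5, chromosome X, 7899357 to 7908351, plus strand) encodes one of 2 versions of a core subunit. It had 21.5, 30.9, 41.6 and 27.4 FPKM in controls and 7.66, 4.51, 8.99 and 5.97 with triclocarban, with no overlap. Its log2 change was -2.01 (standard error 0.29, limma adjusted p = 0.00031). The other version, Timm17a (chromosome 1, 135295213 to 135313778, minus strand), was far more abundant, with 143.7, 207.8, 482.3 and 522.2 FPKM in controls and 151.9, 115.0, 149.1 and 136.4 with triclocarban. Control 1 lay inside the treated range. Its fall of 1.10 (limma adjusted p = 0.0443) was lost in 10 of 24 alternative settings, and against controls 1 and 2 alone the change was -0.33 (limma adjusted p = 0.385). Timm50, the receptor that hands proteins to the channel (chromosome 7, 28305516 to 28312072, minus strand), had 22.2, 14.9, 22.2 and 15.04 FPKM in controls and 10.5, 4.08, 8.48 and 6.67 with triclocarban. It fell by 1.25 without overlap (standard error 0.31, limma adjusted p = 0.00661).

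The channel gene Timm23 had 254.8 ± 43.8 and 183.4 ± 74.9 FPKM (SD, n = 4 each) and did not pass (limma adjusted p = 0.224). Triclocarban library 2, at 71.3, lay far below the other treated libraries, at 214.0 to 227.4. The motor genes Timm44, Pam16 and Grpel1 and the regulatory subunit gene Timm21 had changes of 0.54, 0.40, 0.05 and 0.26, none past the threshold. Timm44 lay above the controls in all treated libraries, at 14.3 to 18.7 against 9.51 to 12.02 FPKM (limma adjusted p = 0.076), and passed with median-of-ratios scaling (0.83, limma adjusted p = 0.015). The matrix chaperone of this motor, Hspa9, had 60.8 to 66.4 FPKM in controls and 77.4 to 106.6 with triclocarban, with a change of 0.45 (limma adjusted p = 0.128). Hspa9 passed with median-of-ratios and upper-quartile scaling (0.75 and 0.92, limma adjusted p = 0.0208 and 0.00738). Its exchange factor Grpel2, a relative of Grpel1, fell by 1.01 (limma adjusted p = 0.00415), a call lost with quantile normalization (limma adjusted p = 0.0549).

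Leader cleavage and the prohibitins gave 0 calls among the 3 members tested with limma (0 at an unadjusted p under 0.05 as well). Of all genes, 42.1% were called in either direction. Pmpcb, the catalytic subunit of the matrix processing peptidase, stood at 16.8 ± 8.43 FPKM in the controls and at 14.6 ± 1.25 in treated libraries (SD, n = 4 each). Its partner subunit gene Pmpca, which is no member of the set, had 4.30, 4.37, 7.88 and 6.47 FPKM in controls and 0.35, 0.80, 1.02 and 1.11 with triclocarban. Pmpca fell by 1.88 (standard error 0.26, limma adjusted p = 0.000259), with no overlap, and had passed the filter through its controls. Phb and Phb2 encode the 2 prohibitins, which form a ring in the inner membrane. Phb had 27.8 ± 7.71 and 45.7 ± 15.2 FPKM and Phb2 50.1 ± 25.9 and 45.0 ± 16.5, and neither passed the threshold (limma adjusted p = 0.129 and 0.901). Without triclocarban library 2 the change of Phb was 0.94 (limma adjusted p = 0.0142).

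Among fusion genes 1 of 3 changed, where 42.1% of all genes were called in either direction. Mfn2, an outer membrane mitofusin (ENSMUSG00000029020.7, chromosome 4, 147873599 to 147904704, minus strand), had 9.83, 10.1, 8.89 and 8.86 FPKM in controls and 3.76, 0.68, 3.34 and 3.25 with triclocarban. The controls were nearly equal, all above the treated libraries, and triclocarban library 2 was the lowest. Mfn2 fell by 1.58 (standard error 0.34, limma adjusted p = 0.00308). Its relative Mfn1 stood at 23.4 ± 2.53 FPKM in the controls and at 26.0 ± 5.08 in treated libraries (SD, n = 4 each). The change of 0.14 did not pass (limma adjusted p = 0.676). Opa1, the inner membrane fusion gene, had 13.9 ± 3.69 and 19.4 ± 7.71 FPKM (limma adjusted p = 0.293).

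Among fission genes 1 of 3 changed, in the opposite direction, where 11.3% of all genes rose. Dnm1l encodes DRP1, the GTPase that constricts mitochondria (ENSMUSG00000022789.7, chromosome 16, 16312230 to 16358959, minus strand). It had 53.4, 47.5, 32.2 and 27.5 FPKM in controls and 75.6, 86.9, 67.6 and 66.2 with triclocarban, with no overlap. Dnm1l rose by 0.91 (standard error 0.27, limma adjusted p = 0.019). The call was lost without control 3 (0.82, limma adjusted p = 0.0571), without control 4 (0.75, limma adjusted p = 0.0635) and without both (0.54, limma adjusted p = 0.121). Its membrane receptor gene Mff, the most abundant member with triclocarban, had 303.8, 317.7, 78.6 and 46.0 FPKM in controls and 432.4, 308.2, 333.0 and 395.9 with triclocarban. Controls 1 and 2 were at the treated level and controls 3 and 4 far below it, and the change of 1.40 did not pass (limma adjusted p = 0.0609). It passed in 7 of 24 alternative settings, among them median-of-ratios scaling (1.71, limma adjusted p = 0.0178). Fis1, an adaptor on the outer membrane, had 23.2 to 30.3 FPKM in controls and 16.7 to 20.8 with triclocarban, lower in every treated library, with a change of -0.45 (limma adjusted p = 0.139).

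Of 7 genes for mitochondrial DNA, 4 fell, 1 rose and 2 did not pass, where 30.8% of all genes fell and 11.3% rose. Twnk encodes the replicative helicase (chromosome 19, 45005663 to 45012762, plus strand). It had 4.63, 5.06, 8.64 and 5.62 FPKM in controls and 1.15, 1.14, 1.28 and 1.44 with triclocarban, and fell by 1.60 (standard error 0.24, limma adjusted p = 0.000412). The opposite-strand gene Mrpl43 covers 12.6% of its exon bases, and its own level was 17.8 to 58.6 FPKM in controls and 1.71 to 4.63 with triclocarban. Whether counting used strand is not stated, so reads of both cannot be told apart there. Polg2, the accessory subunit of the DNA polymerase (ENSMUSG00000020718.6, chromosome 11, 106768253 to 106779537, minus strand), had 4.99, 6.45, 5.48 and 10.2 FPKM in controls and 1.17, 0.43, 0.49 and 0.59 with triclocarban. It fell by 2.19 (standard error 0.27, limma adjusted p = 0.000137). Ssbp1, the single-strand binding protein of the replication fork (ENSMUSG00000029911.8, chromosome 6, 40471352 to 40484700, plus strand), had 47.6, 51.9, 84.1 and 119.8 FPKM in controls and 15.7, 11.3, 12.3 and 13.3 with triclocarban. It fell by 2.35 (standard error 0.32, limma adjusted p = 0.000205). For each of these 3 genes, no treated library reached the lowest control.

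Polg, the catalytic subunit of the same polymerase, stood at 3.71 ± 1.79 FPKM in the controls and at 3.09 ± 1.81 in treated libraries (SD, n = 4 each), and did not pass (limma adjusted p = 0.644). Tfam, which packages mitochondrial DNA and starts its transcription, had 4.85 ± 0.68 and 3.26 ± 0.51 FPKM, a change of -0.46 that did not pass (limma adjusted p = 0.134). A pair of genes related to rRNA methyltransferases moved in opposite directions. Tfb2m, the transcription initiation factor, had 54.7, 44.0, 108.2 and 84.3 FPKM in controls and 29.9, 20.8, 24.5 and 25.7 with triclocarban, and fell by 1.42 (standard error 0.31, limma adjusted p = 0.0034). Tfb1m, which methylates the small mitochondrial rRNA (chromosome 17, 3519256 to 3557781, minus strand), had 7.46, 6.95, 4.18 and 4.52 FPKM in controls and 21.9, 13.7, 18.1 and 20.2 with triclocarban. It rose by 1.54 (standard error 0.27, limma adjusted p = 0.00106), and in both genes the groups did not overlap. The 37 genes encoded in mitochondrial DNA took 16.6, 17.6, 22.6 and 24.3% of the FPKM sum in controls and 11.1, 17.6, 13.7 and 13.1% with triclocarban, so that control 2 and triclocarban library 2 had the same share. The part of this share in the members' changes was tested only as a scaling to a common sum. With these genes in the sum, 16 members were lower and 4 higher (29.2% and 12.1% of all genes). Timm13 and Tomm40 were lost and Timm44 was gained (limma adjusted p = 0.0546, 0.0577 and 0.0477). Without these genes in the sum, all 18 lower and 3 higher calls were kept (31.2% and 10.7% of all genes).

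Within each library, 9 pairs of functional partners or relatives were compared by log2((FPKM + 1)/(FPKM + 1)). The added 1 pulls ratios of low genes toward 0 and leaves some dependence on scaling, so the ratio without it, which has none, was computed after the data were seen. The ratio differed between the groups in 6 of the 9, each with all treated libraries above all controls. In an exact permutation test (two-sided) these 6 had the smallest p possible with 70 assignments, 0.0286, and after Benjamini-Hochberg adjustment over the 9 pairs 0.0429. A pair alone at this p would not have passed, because the adjusted p depends on how many pairs share it. When any single treated library was left out, all 6 missed the threshold (exact permutation, adjusted p 0.0644 to 0.129). All 6 passed it when any single control was left out. With 1 library fewer, p moves in coarser steps, so such a miss cannot show that a ratio hinged on that library. The log2 ratio of Timm9 to Timm10 was 0.04, -0.49, -2.35 and -2.92 in controls 1 to 4 and 2.47, 2.08, 1.78 and 1.54 with triclocarban. Timm10 was thus above Timm9 in controls 2 to 4, and below it in every treated library. Tfb1m over Tfb2m went from -3.39 ± 0.93 to -0.44 ± 0.10 (SD, n = 4 each). The mitofusin ratio, Mfn1 over Mfn2, was 1.3, 1.21, 1.08 and 1.3 in controls and 2.40, 4.36, 2.47 and 2.52 with triclocarban. These controls had the smallest spread of the 9 pairs (SD 0.11), and the treated mean of 2.94 was 1.72 above theirs.

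For the polymerase subunits, Polg over Polg2 went from -0.75 ± 0.67 to 1.22 ± 0.70 (SD, n = 4 each), which is a change of sign. Reads of Fanci may count toward Polg in this ratio. Polg2 is low in treated libraries and, like Mfn2 of the mitofusin ratio, passed the filter through its controls. Without the added 1 the means of Polg over Polg2 were -0.93 and 2.16. Mff over Fis1 went from 2.36 ± 1.33 to 4.21 ± 0.08, and its controls split into 3.64 and 3.35 against 1.51 and 0.96. Phb over Phb2 went from -0.71 ± 0.39 to 0.02 ± 0.23. The remaining ratios overlapped between groups and did not pass. Timm17a over Timm17b differed by 0.91 and Dnm1l over Opa1 by 0.49, both with an exact permutation adjusted p of 0.0964, and Timm8a1 over Timm8b by -1.12 (exact permutation adjusted p = 0.143). Without the added 1, the same 6 pairs passed, with differences of 0.75 (Phb/Phb2) to 3.51 (Timm9/Timm10), each with an exact permutation adjusted p of 0.0429.

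**Figure D3:**
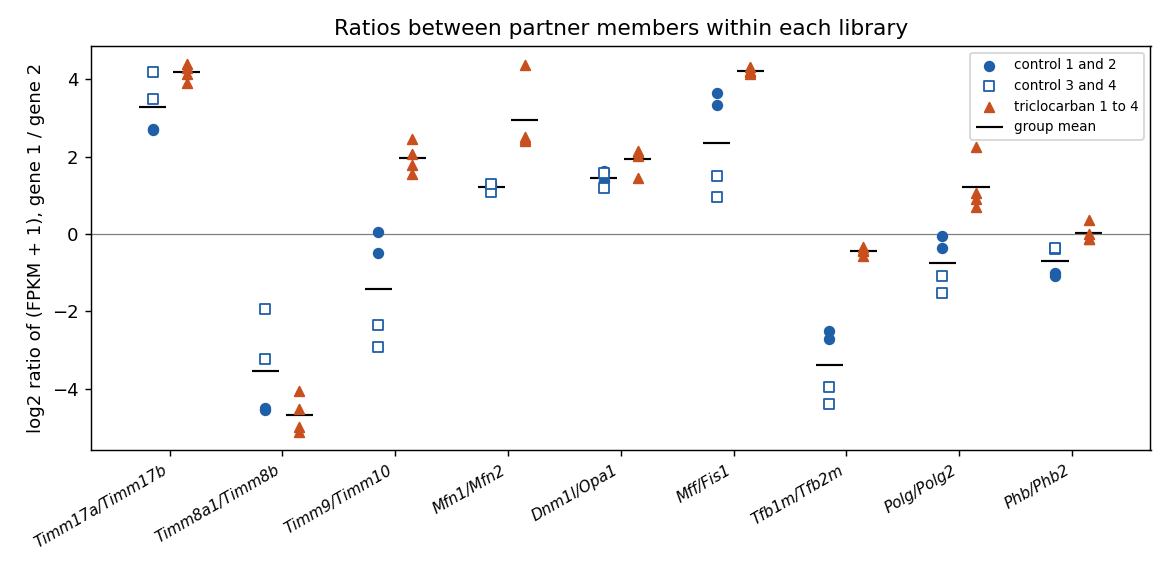
Log2 ratio of (FPKM + 1) for 9 pairs of members within each library. Filled circles are controls 1 and 2, open squares controls 3 and 4, triangles the 4 triclocarban libraries and bars the group means. The groups are apart for Timm9/Timm10, Mfn1/Mfn2, Mff/Fis1, Tfb1m/Tfb2m, Polg/Polg2 and Phb/Phb2.

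The size of many changes depended on which controls were used. Of the 18 lower members, 11 (61.1%) had controls 1 and 2 both below controls 3 and 4, and so nearer to the treated libraries, as had 62.8% of all lower genes. All 3 higher members had controls 1 and 2 above controls 3 and 4, as had 78.5% of all higher genes. Against controls 1 and 2 alone, 13 members were lower and 2 higher, where 25.1% of all genes were lower and 5.37% higher. Against controls 3 and 4 alone, 19 were lower and 7 higher, where 32.6% and 21.9% of all genes were. The changes from the 2 pairs lay over 1 log2 unit apart for 13 of the 42 tested members and under 0.5 apart for 18. Mff was the widest, at 0.23 against controls 1 and 2 (limma adjusted p = 0.529) and 2.58 against controls 3 and 4 (limma adjusted p = 0.000192). Timm10 was at -1.13 and -3.04, Timm8a1 at 0.08 and -1.56, Timm22 at -1.21 and -2.78 and Tomm5 at -2.04 and -3.68.

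The calls for Tomm6 and Tomm7 were lost against controls 1 and 2 (-1.22 and -0.89, limma adjusted p = 0.148 and 0.0677). In contrast, Chchd4 stood at -2.68 and -2.52, Mfn2 at -1.66 and -1.50, Timm50 at -1.25 and -1.26 and Polg2 at -2.02 and -2.37, past the threshold with each pair. Timm9 was at 1.07 and 1.56 and Tfb1m at 1.23 and 1.85, also past it with each pair. So were Timm10, Timm22 and Tomm5, whose sizes depended on the pair (limma adjusted p = 0.0209, 0.00345 and 0.00483 against controls 1 and 2). Of these genes Chchd4, Mfn2, Polg2 and Timm22 had passed the filter through their controls.

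**Figure D4:**
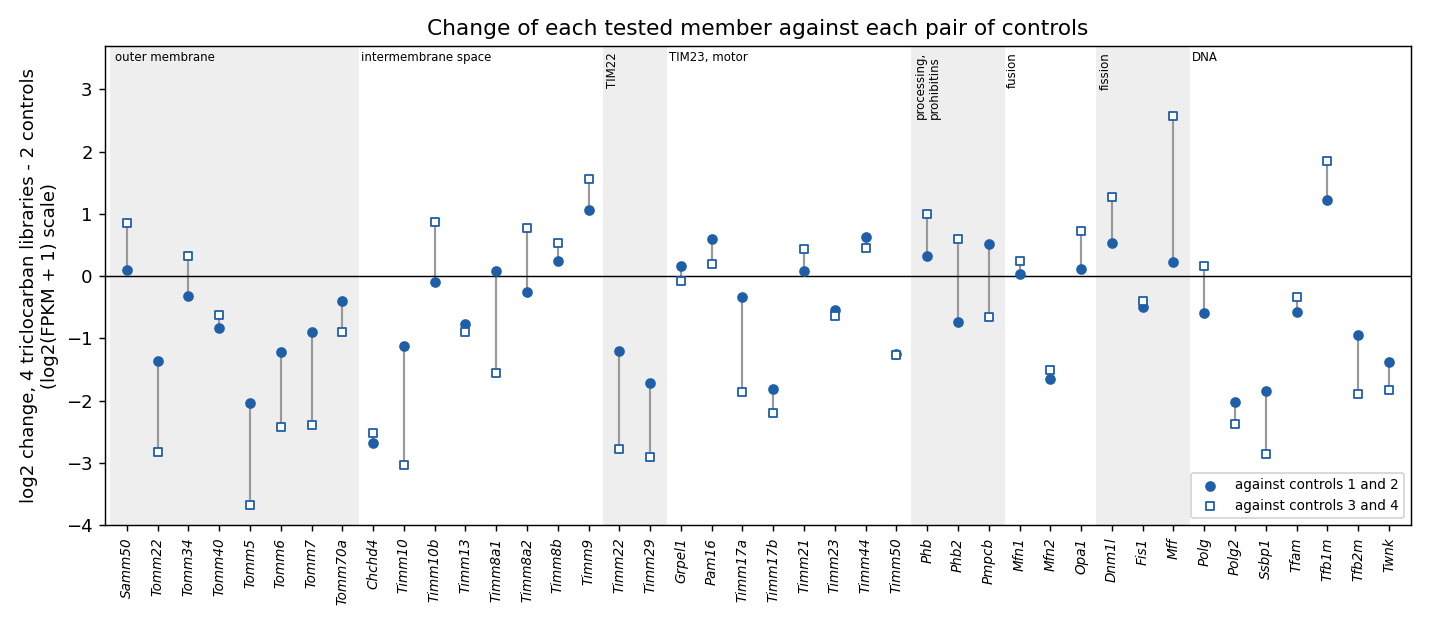
Log2 change of the 42 tested genes (log2(FPKM + 1) scale, 4 triclocarban libraries minus 2 controls), computed against controls 1 and 2 (filled circles) and against controls 3 and 4 (open squares). Long lines, as for Mff, Timm10 and Tomm5, mark genes whose change depended on the pair, and short ones, as for Chchd4, Mfn2 and Timm50, genes for which the pairs gave nearly the same value.

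Of 89 other genes of the same pathways, 87 were matched in the table and 74 were tested, of which 23 fell (31.1%), 12 rose (16.2%) and 39 did not pass. The share that fell was close to the 30.8% of all genes, 11.3% of which rose, and the median log2 change of -0.22 was close to -0.19. With median-of-ratios scaling the count was 20 in each direction, where 20.4% of all genes were higher and 24.6% lower. Of the 23 that fell, 7 passed the filter through their controls: Pmpca, Clpp, Spg7, Miga2, Exog, Endog and Myc. Among these, Spg7, Exog and Myc were under 1 FPKM in every treated library. Among 18 tested genes of import and folding, 5 fell and 4 rose. Timmdc1, an assembly factor of complex I related to the TIM17 family, fell by 1.79 (limma adjusted p = 0.00129), while the matrix chaperonin subunit gene Hspe1 rose by 1.29 and the motor subunit gene Dnajc19 by 1.03 (limma adjusted p = 0.00526 and 0.0231). The others that fell were Pmpca, Grpel2, Aifm1 (-0.95) and Dnajc15 (-1.36), and the others that rose Mipep (1.62) and Immp1l (1.38). Apart from Timmdc1, Pmpca and Grpel2, these were named after their values were seen. Against controls 1 and 2 alone, the calls for Aifm1, Dnajc15, Dnajc19, Mipep and Immp1l were lost (limma adjusted p = 0.217, 0.151, 0.152, 0.329 and 0.134). Those for Aifm1 and Dnajc15 were also lost with median-of-ratios scaling (limma adjusted p = 0.138 and 0.0624). Among 16 tested inner membrane protease and cristae genes, 4 fell and 5 rose. The 4 that fell encode proteases or, for Clpx, the unfoldase of a protease: Spg7 at -2.89, Clpp at -3.16, Clpx at -2.05 and Yme1l1 at -1.64 (limma adjusted p = 0.000137, 0.000368, 0.00145 and 0.00441). Yme1l1 and the 5 that rose were named after their values were seen. The latter were the cristae organizers Immt, Apoo and Apool, at 1.55, 2.12 and 1.63, and the proteases Oma1 and Parl, at 1.27 and 1.37. Parl missed the threshold against controls 1 and 2 alone (0.75, limma adjusted p = 0.0813).

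Among 12 tested dynamics genes 3 fell and 1, Mtfr2, rose (1.10, named after its value was seen). For this list and those below, the shares over all genes were 30.8% lower and 11.3% higher. The dynamics genes that fell were Trak2, an adaptor for mitochondrial transport, at -1.53, Msto1 at -1.78 and Miga2, which promotes fusion, at -1.02 (limma adjusted p = 0.000892, 0.00103 and 0.00854). Miga2 was low, at 1.10 to 2.11 FPKM in controls and 0 to 1.10 with triclocarban, and its groups overlapped. Its call was lost against controls 1 and 2 alone and with quantile normalization (limma adjusted p = 0.0558 and 0.09). For mitochondrial DNA and transcription, 7 of 20 tested genes fell and 2 rose, Mterf4 and Tk2, the latter at 1.5 and named after its value was seen. Tk2 missed the threshold against controls 1 and 2 alone (0.74, limma adjusted p = 0.111). The nucleotide carrier gene Slc25a36 fell (-2.89), as did the DNA exonuclease gene Mgme1 (-1.47), while Mterf4, which acts in mitochondrial ribosome assembly, rose by 2.38 (limma adjusted p = 9.72e-05, 0.00143 and 0.000388). The RNA polymerase gene Polrmt had 3.55 to 11.1 FPKM in controls and 1.38 to 3.86 with triclocarban (limma adjusted p = 0.103). Of 8 tested upstream regulators 4 fell and 0 rose in the limma fit (0 rose at an unadjusted p under 0.05 as well). They were Gabpa at -2.54, Pprc1 at -1.76, Myc at -1.64 and Yy1, named after its value was seen, at -2.04 (limma adjusted p = 0.000113, 0.000864, 0.000764 and 0.00693). Yy1 missed the threshold against controls 1 and 2 alone (-1.37, limma adjusted p = 0.0987). Ppargc1a, the co-activator known for driving mitochondrial growth in adult tissues, was below the filter, at 0.13 FPKM or less in every library.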

How the data were processed

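Poly(A) RNA of 8 libraries of mouse 2-cell embryos (4 control, 4 at 6 µM triclocarban) was measured. The authors deposited 1 table of FPKM, with no counts. Per the labels' protocols, cDNA was amplified before library construction, so fragments are not independent molecules. Per the submitters' processing notes, which assign no roles, the study used STAR, StringTie, featureCounts, DESeq2 1.30.1 and mm10. The tool behind the FPKM, the annotation release and the strand setting were not stated there. Identifiers were matched without version to GENCODE M21 (GRCm38, the assembly of mm10): 32620 of 37310 (87.4%). With GENCODE exon lengths, 5.86 to 8.22% of low values were whole multiples of the worth of 1 fragment (tolerance 0.02, expected by chance 4%), so reads were not recovered and no count test was run. FPKM is a share, so a change of abundant transcripts shifts all others, and closely related or overlapping genes can share reads.

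Genes reaching 1 FPKM in 4 or more of the 8 libraries (12941) were tested with limma 3.58.1 in R 4.3.3 on log2(FPKM + 1), which understates changes of low genes. The fit used lmFit and eBayes with a mean-variance trend, treatment as the only term, 6 residual degrees of freedom and Benjamini-Hochberg adjustment over all genes at 0.05. Ratios used an exact permutation test. Every member is named. Values in each library are given for up to 3 called members per role with the smallest adjusted p, for higher members and for those below the filter, and a few others were added after their values were seen. In each of the 5 lists of other pathway genes, up to 3 called genes with the smallest adjusted p are given, with Hspa9, Polrmt, Nrf1, Gabpa and Ppargc1a as values. Members and lists were chosen with earlier results of these data known. Alternatives were other pseudocounts, filters, scalings and eBayes settings, a replicate block, library weights, a minimum change, and leaving out libraries. Ratios without a pseudocount were added after the data were seen. Promoter windows came from RefSeq (GRCm38.p6). Other software comprised pandas 2.3.3, scipy 1.17.1, numpy 2.4.6 and matplotlib 3.10.9 under Python 3.11.15.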

Additional observations from a re-analysis of the deposited data

Results flagged for a closer look

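In 88 groups of 4 libraries (44 members, 2 groups each), 7 held a library whose gap to its nearest neighbour exceeded Dixon's 95% critical value as a share of the group's range, and chance gives about 1 in 20 groups. Triclocarban library 2, whose uncertain depth estimate was the lowest, accounted for 4 of the 7, and the reason was not tested. There Mfn1 was at 33.6 FPKM, with the others at 23.1 to 24.04, and Opa1 was at 30.9, with the others at 14.4 to 16.8. In the same library Mfn2 was at 0.68, with the others at 3.25 to 3.76, and Timm23 was at 71.3, with the others at 214.0 to 227.4. Triclocarban library 4 stood apart for Tomm22, at 37.7 FPKM against 31.0 to 31.3, and for Tomm40l, at 0.13 FPKM where the others were listed at 0. Control 1 stood apart for Chchd4, at 17.5 FPKM against 13.2 to 13.8.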

How the results depend on the processing

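Of the 18 lower members, 13 kept their direction and call in every alternative that tested them (23 or 24 each), as did Timm9 and Tfb1m among the 3 higher ones and 4 of the 21 uncalled members. Of the uncalled, 11 passed in at least 1 alternative, most often Mff and Timm44 (7 of 24 each) and Phb (6). Calls for Dnm1l, Timm13, Timm17a, Tomm40, Tomm6 and Tomm7 were lost in at least 1. The count of higher members, 3, was 8 with median-of-ratios scaling, 11 with upper-quartile scaling, 7 with quantile normalization, 7 with library weights, 7 without controls 1 and 2 and 2 to 6 on leaving out 1 library, with 6 without triclocarban library 2. The share of higher genes over all genes, 11.3%, moved too. It was 16.3% with library weights, 21.9% without controls 1 and 2 and 5.37% without controls 3 and 4. On leaving out 1 library it was 7.36% (without control 4) to 14.4% (without control 1), and 14% without triclocarban library 2. The count of lower members was 15 to 17 on leaving out 1 library, where 26.8 to 32.3% of all genes were lower. Higher genes among the other pathway genes, 12, were 20, 23 and 20 with those scalings, 21 without controls 1 and 2, 7 without controls 3 and 4 and 10 to 17 on leaving out 1 library. The cause was not tested. With the replicate number as a block, members were 4 higher (Mff was the fourth, limma adjusted p = 0.0435) and 16 lower, and other pathway genes 12 and 26. Over all genes 11.9% were then higher and 31.4% lower. Deviations of same-numbered libraries correlated at 0.338, 0.053, 0.095 and 0.104. Controls 1, 3 and 4 each correlated best with their own number, and control 2 with triclocarban library 1 (0.144). These values cannot decide whether the libraries were paired. The labels state no pairing, so the numbers were not taken to pair the libraries.

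Among members and named partner genes, directions turned only for some that had not passed the threshold. With libraries scaled to a common sum, Phb2 was at 0.01 and Pmpcb at 0.02, and without mitochondrially encoded genes in that sum Tomm34 was at -0.02. With median-of-ratios, upper-quartile and quantile scaling, Phb2 was at 0.23, 0.39 and 0.10, Pmpcb at 0.22, 0.38 and 0.34 and Polg at 0.02, 0.14 and 0.17. Fis1 was at 0.01 with upper-quartile scaling, Gfer at 0.12 and 0.28 and Nrf1 at 0.00 and 0.17 with the first 2. Pmpcb was at 0.04 with library weights. Without controls 1 and 2, Grpel1 was at -0.08, Phb2 at 0.60 and Polg at 0.16. Without controls 3 and 4, Agk was at -0.12, Pmpcb at 0.52, Timm10b at -0.10, Timm8a1 at 0.08, Timm8a2 at -0.25, Tomm34 at -0.32 and Nrf1 at 0.01. On leaving out 1 library, Grpel1 ran from -0.06 to 0.17, Phb2 from -0.31 to 0.18, Pmpcb from -0.29 to 0.20, Polg from -0.49 to 0.01 and Tomm34 from -0.14 to 0.31.

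All 9 ratios kept the sign of their difference in the alternatives run. Without controls 1 and 2 the differences were 4.61 for Timm9/Timm10, 1.75 for Mfn1/Mfn2, 2.98 for Mff/Fis1, 3.73 for Tfb1m/Tfb2m, 2.52 for Polg/Polg2 and 0.40 for Phb/Phb2, and without controls 3 and 4 they were 2.20, 1.68, 0.72, 2.17, 1.42 and 1.07. With the replicate block they were 3.4, 1.72, 1.85, 2.95, 1.97 and 0.73. None of these 3 settings can pass 0.05, because too few assignments are left. On leaving out 1 library they were 2.90 to 3.89, 1.24 to 1.90, 1.38 to 2.28, 2.62 to 3.25, 1.63 to 2.21 and 0.61 to 0.85, and Timm17a/Timm17b was at 0.72 to 1.22. All 6 missed the adjusted threshold when any single treated library was left out (exact permutation, adjusted p 0.0644 to 0.129), and passed it when any single control was left out. Timm17a/Timm17b passed it without control 4 (exact permutation, adjusted p = 0.0368). No depth is given, so levels under about 1 FPKM have no counting error attached.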
